A study of Caenorhabditis elegans with 8 samples.

Results

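The comparison described here sets 6 RNA-seq libraries of damt-1 mutant worms grown on antimycin A against 2 libraries of damt-1 worms grown without it. The 8 libraries are part of a series of 16 and were chosen by their labels: all damt-1 libraries labelled antimycin, from the generations P0, F1 and F2, and the damt-1 untreated libraries, whose counts were the same in each of the authors' 3 damt-1 tables. The study measured messenger RNA of whole Caenorhabditis elegans at the L4 larval stage, with and without this inhibitor of the respiratory chain. The labels give the strain background as Bristol, the genotypes as wild type and damt-1, the drug as 1.92 uM antimycin and the growth temperature as 22 °C. Each genotype had 2 untreated libraries and 2 treated libraries for each of P0, F1 and F2. The labels name neither the damt-1 allele nor the number of animals in a library. The sources differ on when exposure began, since the growth notes give eggs and the series design gives L1 larvae, both until L4. Whether earlier generations of the F1 and F2 worms met the drug is not given in the sources used here.

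Antimycin A blocks complex III of the mitochondrial respiratory chain, which passes electrons from ubiquinol to cytochrome c. Worms whose respiratory chain is impaired are known to raise mitochondrial chaperones such as hsp-6, to switch on enzymes that modify and export foreign compounds, and to develop slowly. The gene damt-1 encodes a putative DNA adenine methyltransferase that has been linked to the inheritance of stress responses across generations. The worm's cuticle, a collagen matrix made by the hypodermis, is rebuilt at each moult, and its collagen genes are switched on at set times within a stage, so that their messenger RNAs also report how far larvae have advanced.

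A broad set of transcripts differed between damt-1 worms with and without antimycin A. Of the gene lists examined, the col family of cuticle collagens had the largest share of rises. How far a difference in developmental time within L4 contributed was not tested. In edgeR's quasi-likelihood test of the mean of the 3 treated groups against the untreated group, 2088 of 11844 tested transcripts (17.6%) passed a Benjamini-Hochberg adjusted p of 0.05. Of these, 1169 were higher after treatment (9.87%) and 919 were lower (7.76%). The rises were larger: 387 transcripts (3.27%) rose at least 2-fold and 70 (0.591%) fell at least 2-fold. The col family of cuticle collagens held 44 of the 387 large rises and the cytochromes P450 held 16, while 9 of 20 genes of the meiotic chromosome axis and synapsis fell. In whole worms, fewer cells of a type and less RNA per cell cannot be told apart.

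The 8 libraries held 3541390 to 4036728 counts. Replicates were close, with a common biological coefficient of variation of 2.4%, and nothing in the labels says whether they came from separate cultures, so that each p-value rests on the spread between libraries alone, which may be technical. The first principal component carried 51.9% of the variance and put both untreated libraries (-46.2 and -45.0) away from all 6 treated libraries (14.2 to 16.4). The highest average of any transcript was only 3.38 counts per nucleotide of spliced length and the 99th percentile was 1.4. Differences of abundant transcripts may therefore be compressed. The damt-1 gene, listed as C18A3.1, stood at 21.7 and 16.9 CPM (the share of a library's counts, scaled by its effective size) untreated and at 15.9 to 23.8 CPM (median 19.4) treated. Its groups overlapped, the log2 difference was 0.00 ± 0.16 (SE, adjusted p = 0.992), and wild type untreated libraries averaged 19.8 CPM. A mutation that leaves the transcript in place would not show in these values, so the level does not check the genotype label.

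The treated generations were alike. For a pair of libraries, the dispersion index compares the squared differences of their counts with those that counting noise alone would give, so that noise gives 1. Over 10030 transcripts with an average of at least 20 counts, it was 1.31 to 1.72 between the 2 replicates of a group (4 pairs, median 1.35). Between treated libraries of different generations it was 1.17 to 1.91 (12 pairs, median 1.27), and these ranges overlapped throughout. Between a treated and an untreated library it was 7.79 to 8.49 (12 pairs, median 7.96), above every other pair.

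**Figure D1:**
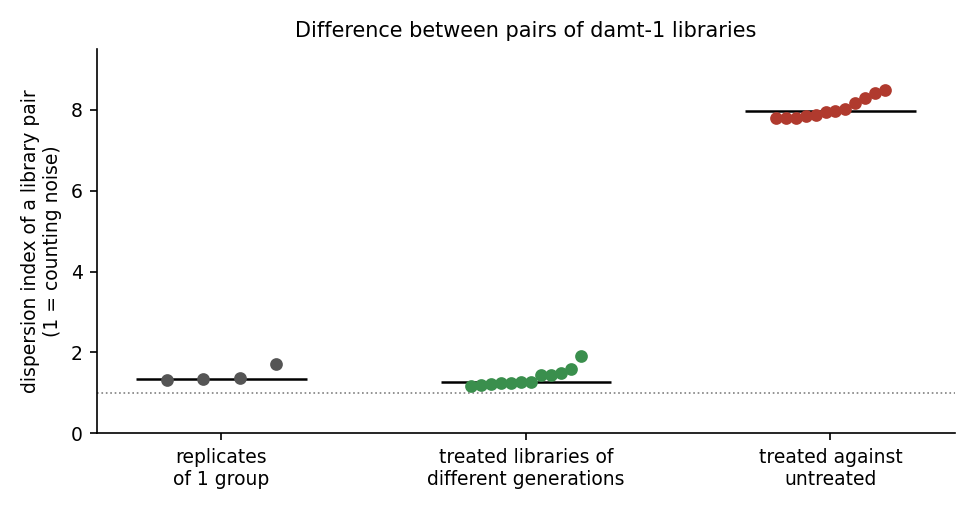
Dispersion index (vertical axis, linear, 1 is counting noise, dotted) of each pair of damt-1 libraries, sorted within each kind of pair, with black lines at the medians. Pairs of treated libraries from different generations (median 1.27) lie where replicates of 1 group lie (median 1.35), and pairs of a treated and an untreated library lie near 8 (median 7.96).

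No transcript differed between the treated generations past the threshold. edgeR's quasi-likelihood test called 0 of 11844 transcripts (0%) in F1 against P0, in F2 against P0 and in F2 against F1, with smallest adjusted p-values of 0.998, 0.995 and 1. At an unadjusted p under 0.05 it gave 490, 484 and 427 transcripts (4.14%, 4.09% and 3.61%), and DESeq2 gave 79, 97 and 68, with 0 past the adjusted threshold. Among 8742 transcripts with a mean of at least 10 CPM, the median standard error of these log2 differences was 0.0947 to 0.0959. Only 2 of the 8742 differed by more than 1 on the log2 scale, both in F2 against P0, where the largest difference was 1.05. Small differences would not have been detectable with 2 libraries a group. Against the shared untreated libraries, P0 gave 978 higher (8.26%) and 633 lower transcripts (5.34%, 13.6% in all). F1 gave 907 (7.66%) and 611 (5.16%, 12.8% in all), and F2 gave 917 (7.74%) and 629 (5.31%, 13.1% in all). In the authors' deposited tables, which hold their own DESeq2 comparisons, the calls at an adjusted p under 0.05 were 554 higher and 252 lower for P0, 533 and 244 for F1, and 443 and 158 for F2.

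**Figure D2:**
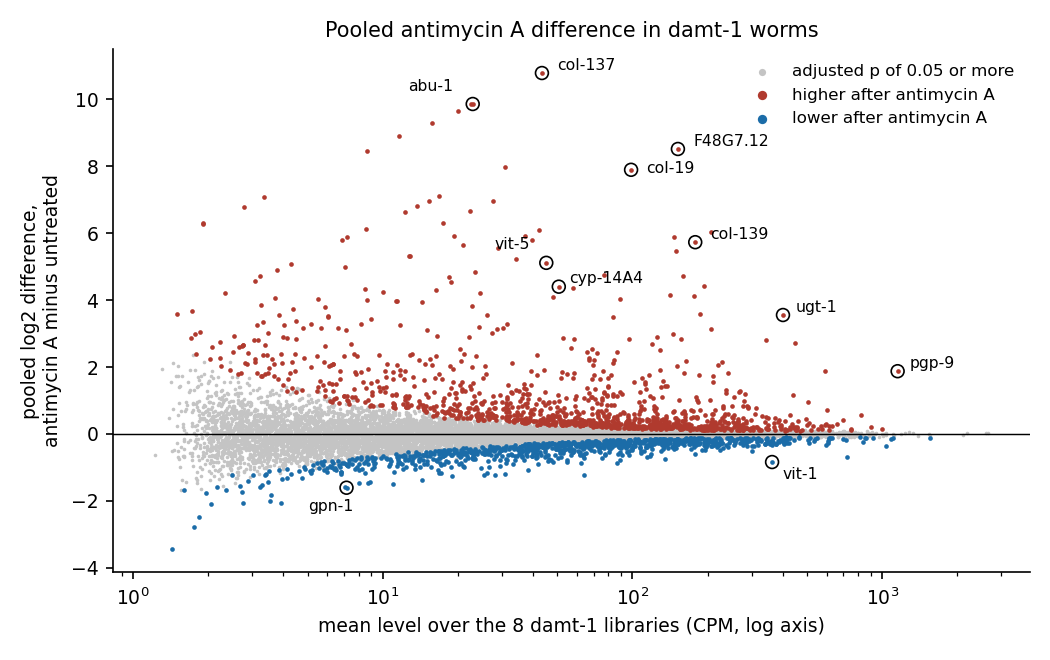
Pooled log2 difference (vertical axis, antimycin A minus untreated) against the mean level over the 8 damt-1 libraries (horizontal axis, CPM on a log scale) for each of the 11844 tested transcripts. Red points (1169) were called higher and blue points (919) lower at an adjusted p under 0.05, rings mark labelled genes, and the rises reach much larger values than the falls.

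The col family of cuticle collagens had a larger share of rises, 68.9%, than any other gene list examined here, though the medians of the short vitellogenin and adult collagen lists were higher. Of 106 tested col genes, 73 rose and 4 fell (3.77%), where 9.87% and 7.76% of all tested transcripts did. At least 2-fold, 44 rose and 0 fell, where 3.27% and 0.591% of all tested transcripts did. The median log2 difference of the family was 0.585, against -0.00262 over all tested transcripts. It was 0.610 in P0, 0.597 in F1 and 0.614 in F2. Summed over the family, the level was 13690 and 14070 CPM untreated and 19160 to 20980 CPM treated, and the groups did not overlap. Many collagen genes are near-identical copies of one another, and how the authors' counting split reads among copies is not given in the sources used here.

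The largest of these rises began from nothing. No count of col-137, a cuticle collagen, was found in either untreated library, and the treated libraries held 53.5 to 61.1 CPM (median 57.9). Taking the limit of 3 counts over both untreated libraries, the level was at least 149-fold higher, with a fitted log2 difference of 10.79 ± 0.38 that depends on the prior count (adjusted p = 3.46e-13). All 6 treated libraries lay within a narrow band, far from both untreated ones. The collagen col-139 stood at 5.62 and 3.27 CPM untreated and at 230 to 241 CPM (median 237) treated, a log2 difference of 5.73 ± 0.10 (adjusted p = 1.27e-17). For col-88 the untreated values were 2.95 and 5.29 CPM and the treated values 260 to 291 CPM (median 272), a log2 difference of 6.03 ± 0.12 (adjusted p = 2.85e-17). Collagens with a clear untreated level also rose, such as col-120, from 20.4 and 19.4 CPM to 233 to 251 CPM (median 241), a log2 difference of 3.60 ± 0.07 (adjusted p = 2.46e-17).

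Collagens of the adult cuticle moved both ways. The gene col-19, the standard marker of the switch from the larval to the adult cuticle, was almost silent untreated, at 0.536 and 0.504 CPM from 4 counts in all. In the treated libraries it reached 128 to 136 CPM (median 131), a log2 difference of 7.90 ± 0.16 (adjusted p = 3.16e-17), while all libraries are labelled L4. Another member of the list, col-62, had 0 counts untreated and 12.9 to 29.99 CPM (median 22.1) treated, at least 54.7-fold higher. Of col-7 there was 1 count untreated and 12.5 to 19.3 CPM treated, a ratio of 125 with a 95% counting interval of 22.3 to 4960. The blister collagen bli-1, a strut collagen of the adult cuticle, was already abundant untreated, at 1199 and 1175 CPM, and lower after treatment, at 1049 to 1141 CPM (median 1073). Its log2 difference was -0.13 ± 0.03 (adjusted p = 0.00828), a call that was lost when either untreated library was left out. In all, 3 of the 5 tested genes of the adult list rose (60%) and 1 fell (20%), against 9.87% and 7.76% of all tested transcripts.

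The furrow collagens, which shape the circular furrows of the cuticle and are made early in each moulting cycle, went slightly down. Of 6 tested, 0 rose and 4 fell (66.7%), against 9.87% and 7.76% of all tested transcripts. The median log2 difference was -0.186, and -0.164 and -0.207 without untreated replicates 1 and 2. The furrow collagen dpy-2 stood at 413 and 393 CPM untreated and at 337 to 361 CPM (median 350) treated, a log2 difference of -0.21 ± 0.04 (adjusted p = 0.000363). For dpy-7, 363 and 346 CPM untreated compared with 301 to 323 CPM (median 312) treated, a log2 difference of -0.18 ± 0.04 (adjusted p = 0.00145) that lost its call without untreated replicate 1. The groups of neither gene overlapped, but the changes were small beside those of the rising col genes. The collagen dpy-17 fell further, from 28.1 and 38.02 CPM to 9.92 to 19.3 CPM (median 13.7), a log2 difference of -1.24 ± 0.15 (adjusted p = 6.56e-06).

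Other cuticle and apical matrix genes moved in both directions. Over all tested transcripts 9.87% rose and 7.76% fell. The abu and pqn genes, which encode secreted proteins rich in glutamine, asparagine or cysteine, gave 18 rises (41.9%) and 1 fall (2.33%) among 43 tested. The paralogs abu-1, abu-7 and abu-15 had 0 counts untreated. They reached medians of 31.6, 26.8 and 30.2 CPM treated, at least 78.6-fold, 68.8-fold and 77.4-fold higher. From 45.8 and 38.02 CPM, abu-14 rose to 155 to 164 CPM (median 158), a log2 difference of 1.92 ± 0.07 (adjusted p = 6.65e-14). These paralogs resemble each other in sequence, so reads may have been shared among them. Genes of the hedgehog-related and patched-related families, many of which act in the cuticle and its moulting, gave 23 rises (41.1%) and 7 falls (12.5%) among 56. Under DESeq2 19 rose and 4 fell. The median of this list was 0.141, and 0.177 and 0.105 without untreated replicates 1 and 2. The hedgehog-related gene grd-6 rose from 23.3 and 23.7 CPM to 175 to 201 CPM (median 185), a log2 difference of 2.98 ± 0.07 (adjusted p = 3.23e-16). Among cuticlins, which are structural proteins of the cuticle, 7 rose (28%) and 4 fell (16%) of 25. Their median turned from -0.128 to 0.226 without untreated replicate 2. The cuticlin cut-4 rose from 51.7 and 44.6 CPM to 124 to 143 CPM (median 134), and cutl-18 fell from 210 and 207 CPM to 159 to 176 CPM (median 172). Among 12 genes of moulting enzymes and the apical matrix, a list added after the values were seen, 1 rose (8.33%) and 4 fell (33.3%). The falls numbered 1 without untreated replicate 1, and 2 without replicate 2, without P0 replicate 1, without F1 replicate 2 and under DESeq2. The riser was nas-36, an astacin metalloprotease needed to shed the old cuticle, with a log2 difference of 0.70 ± 0.11 (adjusted p = 7.32e-05), and mlt-10, a moulting gene, fell by 0.16 (adjusted p = 0.00152). How far the libraries differed in developmental time within L4 was not tested.

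**Figure D3:**
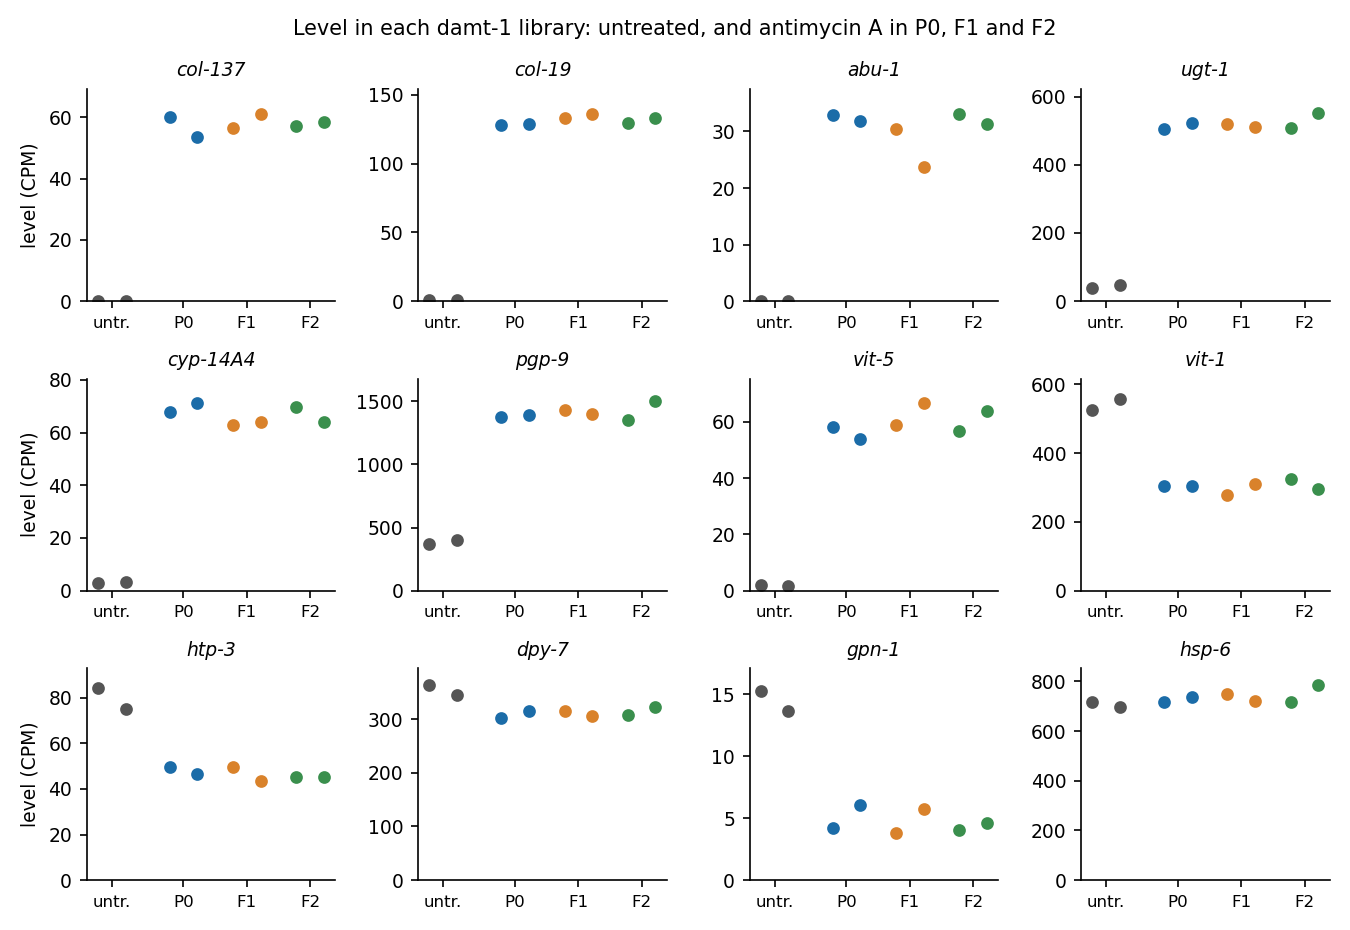
Level (CPM, linear axes from 0) of 12 genes in each of the 8 damt-1 libraries, grey for untreated and blue, orange and green for antimycin A in P0, F1 and F2. The treated libraries form 1 band for each gene: col-137 at 53.5 to 61.1 CPM against 0 untreated, vit-1 at 279 to 324 CPM against 526 and 557, and hsp-6 at 717 to 786 CPM against 716 and 696.

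Genes of detoxification rose in several families. Such genes act in order: cytochromes P450 oxidise foreign compounds, UDP-glucuronosyltransferases and glutathione S-transferases attach sugars or glutathione, and ABC transporters export the products. Of 54 cytochromes P450 tested, 24 rose (44.4%) and 7 fell (13%), with a median log2 difference of 0.291, against 9.87% and 7.76% of all tested transcripts. Among UDP-glucuronosyltransferases 17 rose (34.7%) and 5 fell of 49, both shares above those of all tested transcripts, with a median of 0.137. Glutathione S-transferases gave 9 rises (23.1%) and 1 fall (2.56%) of 39, and ABC transporters 11 rises (25%) and 4 falls (9.09%) of 44. Of the glutathione S-transferases 6 rose under DESeq2, and 6 with scaling from transcripts under 0.2 counts per nucleotide. Short-chain dehydrogenases, another family of the pathway, gave 1 rise (4.17%) and 3 falls (12.5%) of 24, with a median of -0.043. Under DESeq2 1 rose and 0 fell, and counts so small do not set the family apart from all tested transcripts. Without untreated replicate 1, the falls numbered 4 for the cytochromes P450, 2 for the UDP-glucuronosyltransferases and 1 for the dehydrogenases. Without replicate 2 they numbered 3 for the UDP-glucuronosyltransferases and 0 for the dehydrogenases. The rises of ABC transporters numbered 7 with either untreated library left out. The summed level of the cytochromes P450 went from 3014 and 3060 CPM untreated to 4189 to 4278 CPM treated.

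Single enzymes rose many fold. The cytochrome P450 gene cyp-14A4 stood at 2.95 and 3.27 CPM untreated and at 62.9 to 71.1 CPM (median 65.9) treated, a log2 difference of 4.4 ± 0.15 (adjusted p = 8.32e-14). For cyp-33C5, 3.21 and 4.03 CPM compared with 71.5 to 83.0 CPM (median 75.5), a log2 difference of 4.38 ± 0.15 (adjusted p = 7.44e-14). By contrast cyp-35A5 fell from 23.3 and 29.7 CPM to 6.197 to 13.001 CPM (median 10.8), a log2 difference of -1.37 ± 0.21 (adjusted p = 7.77e-05). The family therefore held members that moved strongly in opposite directions. The transferase ugt-1 rose from 39.9 and 48.1 CPM to 505 to 551 CPM (median 515), a log2 difference of 3.56 ± 0.07 (adjusted p = 1.27e-17). From 86.5 and 85.6 CPM, ugt-61 rose to 551 to 609 CPM (median 562), a log2 difference of 2.73 ± 0.06 (adjusted p = 2.85e-17). The transferase ugt-11 rose from 8.84 and 5.29 CPM to 99.6 to 134 CPM (median 117), a log2 difference of 4.04 ± 0.13 (adjusted p = 2.14e-14). In each of these 3 transferases every treated library held several times the level of either untreated library.

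Among glutathione S-transferases, gst-33 rose from 15.3 and 14.6 CPM to 81.7 to 90.7 CPM (median 87.3), a log2 difference of 2.54 ± 0.10 (adjusted p = 3.46e-13). With 3 counts untreated, gst-8 reached 12.9 to 19.3 CPM, a ratio of 43.2 with a 95% counting interval of 14.7 to 211 (210.5). The ABC transporter pgp-9, a P-glycoprotein, was already abundant, at 366 and 401 CPM untreated and 1356 to 1500 CPM (median 1398) treated. Its log2 difference was 1.88 ± 0.05 (adjusted p = 3.23e-16). Among genes of metal and heme handling 7 rose (21.2%) and 5 fell (15.2%) of 33, and under DESeq2 5 rose and 2 fell. Their median was 0.015, and 0.0272 and -0.00612 without untreated replicates 1 and 2. The cadmium-responsive cdr-1 rose from 12.9 and 6.55 CPM to 98.3 to 116 CPM (median 109). Nuclear hormone receptors, the transcription factors that govern many detoxification and lipid genes, gave 26 rises (20%) and 3 falls (2.31%) among 130, against 9.87% and 7.76% of all tested transcripts. The rises numbered 14 without untreated replicate 1, 17 without replicate 2 and 15 under DESeq2. The receptor gene nhr-106 rose by 1.21 ± 0.08 on the log2 scale (adjusted p = 4.49e-10).

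The standard mitochondrial stress reporters did not pass the test. The mitochondrial Hsp70 gene hsp-6 stood at 716 and 696 CPM untreated and at 717 to 786 CPM (median 729) treated, a log2 difference of 0.06 ± 0.04 (adjusted p = 0.283). For the mitochondrial chaperonin hsp-60, 103.9 and 98.96 CPM compared with 97.7 to 105 CPM (median 103), and its groups overlapped (log2 difference 0.02 ± 0.05, adjusted p = 0.889). Among 14 mitochondrial chaperones and proteases, 1 rose (7.14%) and 0 fell, against 9.87% and 7.76% of all tested transcripts. The riser was the inner membrane protease ymel-1, by 0.13 ± 0.04 (adjusted p = 0.0338), a call lost in 7 of the 17 alternative settings tried for single genes.

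The respiratory chain itself was nearly level. The median log2 difference of 11 tested genes of complex III and cytochrome c was 0.009. Of these, 0 rose and 2 fell (18.2%), against 9.87% and 7.76% of all tested transcripts. The 2 were ucr-2.3, a core subunit gene of complex III, and cyc-2.2, one of 2 cytochrome c genes. For ucr-2.3 the levels were 121 and 125 CPM untreated and 79.2 to 89.8 CPM (median 86.7) treated, a log2 difference of -0.53 ± 0.05 (adjusted p = 3.26e-07). The call of cyc-2.2 (log2 difference -0.36 ± 0.11, adjusted p = 0.0369) was lost in 6 settings. Complex I, II and ATP synthase each gave 1 fall and 0 rises, among 30, 5 and 8 genes, and complex IV gave neither among 9. The genes that fell there were nduf-2.2 of complex I, by 0.42 (adjusted p = 7.98e-05), sdha-2 of complex II, by 0.31 (adjusted p = 0.00092), and asb-1 of ATP synthase, by 0.15 (adjusted p = 0.0168). The paralog sdha-1 did not change past the threshold, at 499 and 505 CPM untreated and 496 to 542 CPM treated. Of 71 mitochondrial ribosomal protein genes, 0 rose and 0 fell, and of 77 cytosolic ones 0 rose and 1 fell.

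Stress responses outside the mitochondria were small in size. The glutathione S-transferase gst-4, a reporter of the oxidative stress factor SKN-1, stood at 126 and 132 CPM untreated and at 108 to 119 CPM (median 112) treated, a log2 difference of -0.20 ± 0.05 (adjusted p = 0.0111). This call was lost under DESeq2 and without untreated replicate 2. The endoplasmic reticulum chaperone hsp-4 was higher in every treated library, at 276 to 293 CPM (median 280) against 244 and 240 CPM, a log2 difference of 0.22 ± 0.04 (adjusted p = 0.00034). For sod-3, a superoxide dismutase gene regulated by DAF-16, the groups overlapped, at 18.2 and 11.8 CPM untreated and 10.6 to 17.96 CPM treated (log2 difference -0.08 ± 0.20, adjusted p = 0.869). Among 11 genes of the hypoxia and hydrogen sulfide response 0 rose and 4 fell (36.4%, against 7.76% of all tested transcripts). The falls included rhy-1, a regulator of the hypoxia factor HIF-1, by 0.26 (adjusted p = 0.000322). The median of this list was -0.186, and -0.0281 without untreated replicate 1 and -0.199 without replicate 2. The cytosolic heat shock list gave 0 rises and 1 fall (12.5%) among 8. SKN-1 targets gave 1 rise (14.3%) and 2 falls (28.6%) among 7, and DAF-16 targets gave 2 rises (20%) and 0 falls among 10. Endoplasmic reticulum chaperones gave 3 rises (15.8%) and 1 fall (5.26%) among 19. Under DESeq2 these 3 lists gave 1, 1 and 2 rises and 0 falls. Counts so small do not set these lists apart from all tested transcripts, of which 9.87% rose and 7.76% fell.

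Yolk protein genes moved apart. Yolk proteins are made by the intestine at the approach of adulthood and taken up by oocytes. The gene vit-5 rose from 1.87 and 1.51 CPM to 53.999 to 66.6 CPM (median 58.5), a log2 difference of 5.12 ± 0.20 (adjusted p = 3.46e-13). From 5.09 and 6.55 CPM, vit-4 rose to 26.4 to 35.2 CPM (median 28.1), and vit-3 rose from 30.3 and 35.5 CPM to 55.7 to 78.7 CPM (median 67.4). In contrast vit-1 fell from 526 and 557 CPM to 279 to 324 CPM (median 305), a log2 difference of -0.84 ± 0.04 (adjusted p = 1.6e-11). The groups overlapped for none of these 4 genes. For vit-2, at 1.34 and 1.26 CPM untreated and 1.72 to 3.12 CPM treated, the test was not passed (adjusted p = 0.222). Because vit-1 was the most abundant, the summed level of the 5 genes was lower after treatment, at 437 to 491 CPM (437.4 to 490.7) against 564 and 602 CPM (564.2 and 601.8). These genes are close copies, and the division of reads among them is uncertain.

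Lipid genes differed by group. Among lipases and lipid binding proteins 12 rose (54.5%) and 1 fell (4.55%) of 22, against 9.87% and 7.76% of all tested transcripts, with a median log2 difference of 0.237, and lips-3, a lipase gene, went from 45.3 and 38.3 CPM to 118 to 133 CPM (median 120). For fatty acid activation and oxidation there were 12 rises (22.6%) and 6 falls (11.3%) among 53, and the median was -0.002. These counts were 5 and 5 without untreated replicate 1, 8 and 4 without replicate 2, and 6 and 5 under DESeq2. The carnitine palmitoyltransferase gene cpt-4 rose from 189 and 188 CPM to 309 to 340 CPM (median 324), a log2 difference of 0.78 ± 0.04 (adjusted p = 1.06e-10). An acyl-CoA synthetase gene that feeds mitochondrial fatty acid breakdown, acs-2, did not pass, at 61.9 and 65.2 CPM untreated and 59.7 to 75.2 CPM (median 67.8) treated (adjusted p = 0.478). In fatty acid synthesis and desaturation 1 gene rose and 2 fell of 18, and the desaturase fat-7 fell by 0.23 (adjusted p = 0.000149).

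Genes of the germ line and of meiosis were lower. Of 20 tested genes of the meiotic chromosome axis and synapsis, 0 rose and 9 fell (45%), against 9.87% and 7.76% of all tested transcripts. Under DESeq2 7 fell. The median log2 difference was -0.516, with medians of -0.497, -0.545 and -0.518 in P0, F1 and F2. Without untreated replicate 1 it was -0.565, and without replicate 2 it was -0.491. The axis gene htp-3 fell from 84.1 and 75.0 CPM to 43.7 to 49.8 CPM (median 46.0), a log2 difference of -0.77 ± 0.08 (adjusted p = 4.96e-07). The synaptonemal complex gene syp-5, listed as Y54E10A.12, fell from 30.8 and 35.3 CPM to 14.2 to 18.4 CPM (median 17.3), a log2 difference of -0.96 ± 0.13 (adjusted p = 2.11e-05). No treated library reached the level of an untreated one for either gene. On the germ line marker list 1 gene rose (6.67%) and 5 fell (33.3%) of 15, with a median of -0.323. Its summed level was 949 and 956 CPM (949.3 and 956.0) untreated and 728 to 799 CPM (727.6 to 798.7) treated. The stem cell regulator fbf-1, a PUF RNA-binding protein, fell from 44.2 and 41.5 CPM to 21.6 to 26.7 CPM (median 25.3), a log2 difference of -0.78 ± 0.11 (adjusted p = 2.25e-05). The germ granule helicase glh-4 fell by 0.61 (adjusted p = 1.72e-07).

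Some small RNA genes, which work largely in the germ line, fell as well. The falls made up 40% of Argonautes and 29.4% of cofactors, against 7.76% of all tested transcripts. Among 15 Argonautes 0 rose and 6 fell, with a median of -0.134 that turned to 0.00888 (4 falls) without untreated replicate 2. Among 17 cofactors 1 rose and 5 fell, and 0 rose and 2 fell without untreated replicate 1 and under DESeq2. The nuclear Argonaute hrde-1, needed for heritable RNA silencing, fell from 183 and 181 CPM to 125 to 146 CPM (median 132), a log2 difference of -0.44 ± 0.04 (adjusted p = 4.79e-07). The RNA-dependent RNA polymerase ego-1 fell from 83.6 and 105 CPM to 44.2 to 59.0 CPM (median 52.7), a log2 difference of -0.87 ± 0.10 (adjusted p = 3.4e-06). Among 15 enzymes of DNA adenine and histone methylation 1 rose and 2 fell, and set-32, a putative histone methyltransferase, fell by 0.98 (adjusted p = 0.000804), a call lost without untreated replicate 1. The shares of the methylation list, 6.67% higher and 13.3% lower, rest on few genes and were near those of all tested transcripts. The cytoplasmic polyadenylation factor cpb-1, which acts in spermatogenesis, fell from 58.9 and 48.3 CPM to 19.8 to 26.8 CPM (median 22.8). For sperm and major sperm proteins 2 rose (2.67%) and 5 fell (6.67%) of 75, both below the shares of all tested transcripts. The median of this list was 0.0362, and 0.0787 and 0.0152 without untreated replicates 1 and 2. Under DESeq2 1 rose and 3 fell, and the summed level of the list overlapped between groups. The part of germ cell number in the falls of meiotic, germ line and small RNA genes was not tested.

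Eggshell and oocyte surface genes ran the other way, with 10 rises (37%) and 1 fall (3.7%) among 27. The shares over all tested transcripts were 9.87% and 7.76%, and under DESeq2 7 genes of this list rose and 1 fell. T10E9.3, now named cpg-22, rose from 21.2 and 21.9 CPM to 151 to 169 CPM (median 159), a log2 difference of 2.89 ± 0.08 (adjusted p = 1.37e-15). The permeability barrier gene perm-4 rose from 8.30 and 9.82 CPM to 26.001 to 37.04 CPM (median 31.2), a log2 difference of 1.79 ± 0.16 (adjusted p = 1.38e-07).

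Tissue marker lists were short and gave few calls. The lists for neurons (7 genes), body wall muscle (13) and hypodermis (7) gave 0 rises and 0 falls in edgeR's test. Lists of this length would hold few calls at the shares of all tested transcripts, so these counts cannot show that the tissues were steadier. The muscle myosin unc-54, for example, was at 2619 and 2517 CPM untreated and at 2490 to 2789 CPM (median 2605) treated (log2 difference 0.02, adjusted p = 0.754). Of 7 intestinal markers 1 rose, the gut transcription factor elt-7, by 0.80 (adjusted p = 0.0175), and the call was lost under DESeq2 and without either untreated library. Of 12 pharynx markers 2 rose (16.7%) and 2 fell (16.7%), against 9.87% and 7.76% of all tested transcripts, and under DESeq2 2 rose and 0 fell. They were led by the pharyngeal myosin myo-2, at 56.2 and 49.4 CPM untreated and 128 to 142 CPM (median 131) treated. Its log2 difference was 1.34 ± 0.07 (adjusted p = 2.16e-11).

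Of the immune families, C-type lectins were the largest, and 15 rose (16.3%) and 26 fell (28.3%) of 92, with a median of -0.100, against 9.87% and 7.76% of all tested transcripts. Under DESeq2 11 rose and 14 fell, where 722 and 412 of all 11844 tested transcripts did. The median was -0.135 without untreated replicate 1 and -0.144 without replicate 2. The lectin gene clec-169 fell from 143 and 120 CPM to 59.3 to 81.1 CPM (median 75.1), while clec-229 rose from 0.803 and 1.01 CPM to 19.1 to 28.1 CPM (median 25.0). Lysozymes, saposin-like proteins and defence peptides gave 4 rises (6.35%) and 6 falls (9.52%) among 63, near the shares over all tested transcripts, and 2 falls without untreated replicate 1.

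**Figure D4:**
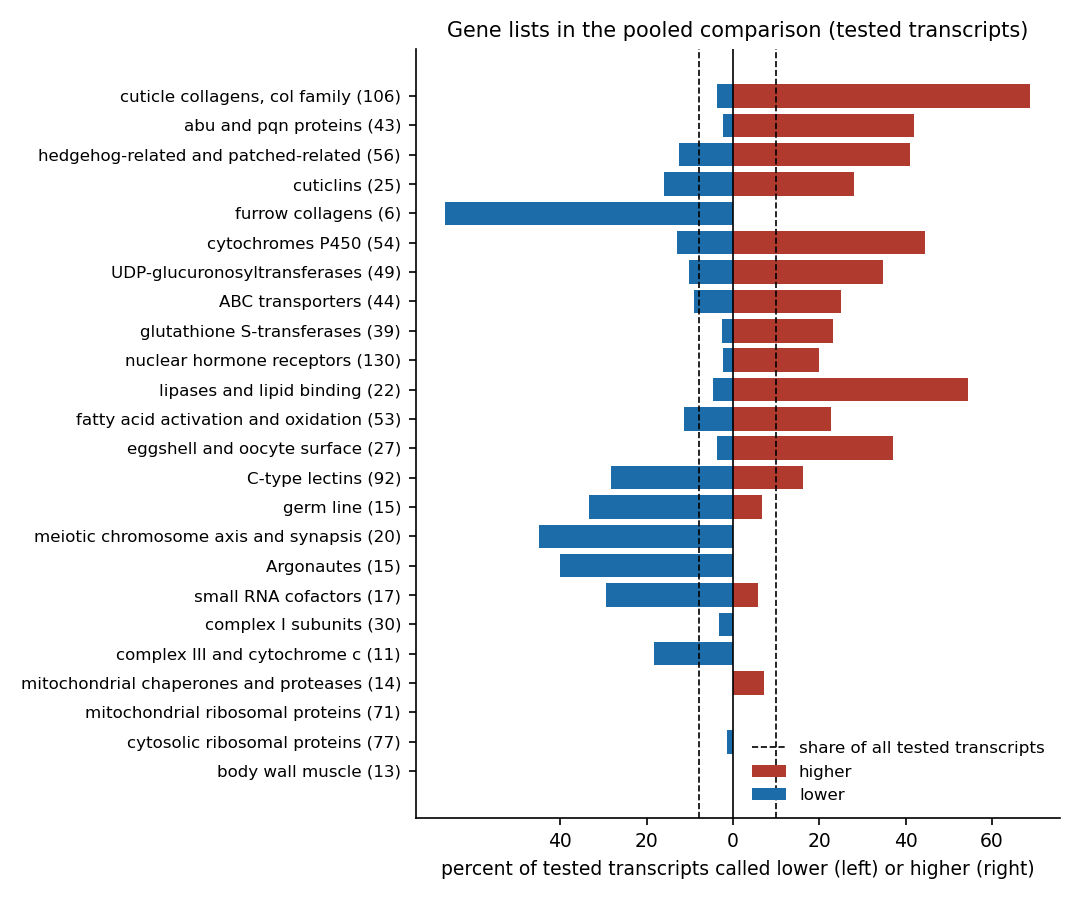
Share of the tested transcripts of each gene list (number in parentheses) called higher (red, to the right) or lower (blue, to the left) in the pooled comparison, in percent, with dashed lines at the shares over all tested transcripts (9.87% and 7.76%). The col collagens stand out with 68.9% higher, and 45% of the meiotic genes were lower.

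Transcripts were ranked by size only where all treated libraries lay on the same side of both untreated ones. The 12 largest rises among transcripts averaging at least 10 CPM in a group were col-137, abu-1, abu-15, abu-7, col-62, F41E6.11, F48G7.12, C54D2.1, E02C12.10, col-19, col-119 and T06E4.14. Several have no known role named in the sources used here. F48G7.12 was at 0.268 and 0.755 CPM untreated and 195 to 218 CPM (median 201) treated, a log2 difference of 8.52 ± 0.17 (adjusted p = 2.85e-17). Of E02C12.10 there was 1 count untreated and 35.4 to 47.9 CPM (median 41.7) treated, a ratio of 318 with a 95% counting interval of 56.9 to 12560. In all, 11 of the transcripts that rose had 0 counts in both untreated libraries.

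The 12 largest falls by the same rule were smaller, from -1.21 to -1.61 on the log2 scale. They were gpn-1, dot-1.3, F31B9.2, ZC84.6, oac-23, fbxa-202, cyp-35A5, dpy-17, T17H7.1, T25G12.6, ZK1193.2 and cpb-1. The glypican gene gpn-1, a cell surface proteoglycan, fell from 15.3 and 13.6 CPM to 3.81 to 6.06 CPM (median 4.404), a log2 difference of -1.61 ± 0.25 (adjusted p = 8.4e-05). It belongs to a basement membrane list whose median was -0.0521, and -0.0957 and -0.00537 without untreated replicates 1 and 2. Of the 11 genes on this list 0 rose and 4 fell (36.4%), against 9.87% and 7.76% of all tested transcripts. The laminin alpha gene lam-3 fell there too, from 60.5 and 65.2 CPM to 20.96 to 34.02 CPM (median 32.3), a log2 difference of -1.06 ± 0.11 (adjusted p = 9.6e-07).

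The change in damt-1 worms differed from that in wild type for many transcripts. In a fit over all 16 libraries, the pooled antimycin difference in damt-1 minus that in wild type passed edgeR's adjusted threshold for 5157 of 12298 transcripts (41.9%). Of these, 2388 were higher in damt-1 (19.4%) and 2769 lower (22.5%). The untreated damt-1 libraries stood apart from the others over the rising genes. For 376 transcripts that rose at least 2-fold in damt-1 and could be tested in both genotypes, the median level was 4.28 CPM (4.275) in untreated damt-1 and 22.7 CPM in treated damt-1. In wild type it was 25.4 CPM untreated and 22.3 CPM treated, so that the median of treated damt-1 lay near those of both wild type groups. Single genes could still lie apart, such as ugt-1, described below. Of all transcripts in wild type 25.7% rose and 21.7% fell (47.4% called). Of these 376, 83 rose and 223 fell in wild type, and the difference between genotypes was called for 325, 313 of them higher in damt-1. For the 65 falls of at least 2-fold the medians were 9.97 CPM untreated and 4.73 CPM treated in damt-1, and 7.21 and 12.2 CPM in wild type. These sets were chosen on the damt-1 comparison, which is also part of the genotype difference. The choice itself favoured calls of that difference in the same direction. Their untreated damt-1 levels and their counts of genotype calls are therefore a description, not a test.

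Cuticle genes differed strongly between the genotypes. Wild type levels of col-19 averaged 241 CPM untreated and were 87.3 to 171 CPM (median 102) treated, a log2 difference of -1.06, against 7.90 in damt-1. The difference between genotypes was 8.96 ± 0.18 (adjusted p = 6.93e-21). Of 105 col genes tested in both genotypes, 79 responded higher in damt-1 and 11 lower. Over all transcripts tested in both genotypes the shares were 19.4% and 22.5%. The median wild type log2 difference of the family was -0.304. The furrow collagens responded lower in damt-1 for 6 of 6 genes. For dpy-7, wild type rose from 79.0 CPM to 137.1 to 234.8 CPM (median 229) while damt-1 was above 300 CPM in all libraries.

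Meiotic genes responded lower in damt-1 for 20 of 20, against 22.5% of all transcripts tested in both genotypes. In wild type htp-3 rose from an average of 75.0 CPM to 99.5 to 133 CPM (median 119), and the difference between genotypes was -1.40 ± 0.11 (adjusted p = 1.76e-10). The untreated levels of htp-3 were alike in the genotypes, so here the treated groups parted. Among mitochondrial chaperones and proteases 10 of 14 responded lower in damt-1, again against 22.5%, and hsp-6 differed by -0.15 (edgeR, adjusted p = 0.0189).

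Detoxification genes gave both patterns. For ugt-1, wild type stayed at an average of 106 CPM untreated and 103 to 122 CPM treated (adjusted p = 0.188), and the difference between genotypes was 3.46 ± 0.10 (adjusted p = 1.63e-18). For cyp-14A4, wild type rose further, from 2.92 CPM to 302 to 384 CPM (median 375), and the difference was -2.46 ± 0.39 (adjusted p = 1.75e-05). The rise of ugt-61 was of like size, 2.73 in damt-1 and 2.66 in wild type on the log2 scale, and the difference of 0.07 was not called (adjusted p = 0.657). In wild type the fatty acid gene acs-2 rose from an average of 13.4 CPM to 530 to 581 CPM (median 552), where damt-1 did not change past the threshold, and the difference was -5.26 ± 0.14 (adjusted p = 4.44e-19). For sod-3, treated wild type libraries reached 26.5 to 67.8 CPM (median 64.4), and the difference between genotypes was -2.77 (adjusted p = 4.14e-09).

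**Figure D5:**
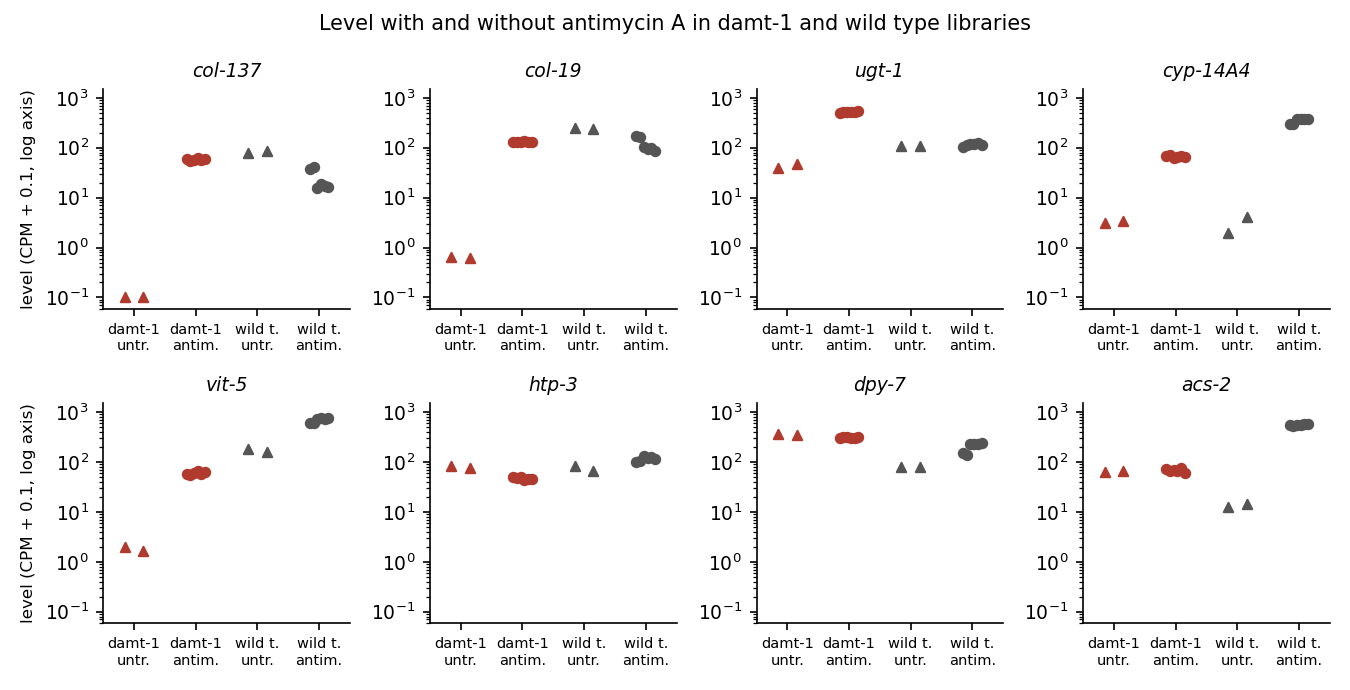
Level (CPM plus 0.1, log axis) of 8 genes in single libraries, red for damt-1 and grey for wild type, triangles for untreated and circles for antimycin A. Untreated damt-1 libraries lie far below all others for col-137, col-19 and vit-5, and acs-2 is above 500 CPM only in treated wild type.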

How the data were processed

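Per the submitters' processing notes, reads were handled with Trimmomatic 0.35, HISAT2 2.0.5, SAMtools 1.3.1 and HTSeq 0.9.1 on ce10, and compared with DESeq2 1.20.0. The authors deposited raw counts per transcript for each library, and log2 fold changes with adjusted p-values of their own comparisons. Columns were matched to samples by their letters and tables. Of the normalized columns, 24 were not used. The 3 damt-1 tables shared 12936 of 13608 transcripts. CPM were computed here with TMM factors. edgeR 4.0.16 (R 4.3.3) fitted 1 mean per group (filterByExpr, minimum count 10, robust quasi-likelihood F test, SE from F), tested on simulated data. A change is an adjusted p under 0.05. Replicate numbers did not pair libraries (r of -0.0551 to 0.0222). The wild type contrast used 12654 transcripts listed in all 6 tables. Alternatives were DESeq2 1.42.0, other scalings, filters, models and omitted libraries. Named genes were preset markers, the 12 largest rises and falls, the 6 largest genotype differences each way, and up to 4 genes a list with the smallest adjusted p. The rankings by size required at least 10 CPM in a group and all 6 treated damt-1 libraries on 1 side of both untreated ones. Members and lists were chosen with earlier results of these data known. Intervals and the limit of 3 counts cover counting error only. Settings were varied once each.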

Additional observations from a re-analysis of the deposited data

Results flagged for a closer look

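Of 39 genes among the markers and the largest changes, 1 had a treated library standing apart from the other 5. For abu-1, F1 replicate 2 held 23.7 CPM (23.661), below the other 5 treated libraries, at a gap of 0.724 of the whole range. Chance alone gives such a flag in about 1 of 20 groups.

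The pooled antimycin difference in damt-1 minus that in wild type was tested directly. Below are the 6 largest log2 differences each way past the threshold, by the rule for named genes. This rule kept genes with at least 10 CPM in a group and all 6 treated damt-1 libraries on 1 side of both untreated ones. It left out genes whose damt-1 groups overlapped, such as acs-2, whose genotype difference is given above. On the higher side were col-137 (12.73), col-62 (11.11), abu-1 (11.09), abu-7 (10.99), abu-15 (10.85) and F41E6.11 (9.46), all with 0 counts in both untreated damt-1 libraries, so that the size depends on the prior count. On the lower side, hsd-3 (-5.37), clec-17 (-5.27), an unnamed transcript of Y105C5B (-4.55), gst-14 (-4.49), F41G3.10 (-4.48) and F08D12.3 (-4.38) were low in untreated wild type libraries and rose there. The C-type lectin gene clec-17 went from an average of 1.38 CPM to 136 to 177 CPM in wild type and from 6.69 and 10.1 CPM to 22.1 to 28.03 CPM in damt-1. The transferase gst-14 went from 0.485 CPM to 43.8 to 69.9 CPM in wild type and from 4.02 and 4.03 CPM to 16.1 to 23.1 CPM in damt-1.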

How the results depend on the processing

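List counts under another setting are to be read beside the calls of that setting, since 9.87% and 7.76% belong to the main test. The pooled count of 2088 (1169 higher, 919 lower) fell to 1134 (722 and 412) with DESeq2, and with a log2 limit of 1 to 457 (387 and 70). Leaving out 1 library gave 1308 to 2201 (776 to 1204 higher, 468 to 1005 lower). The low ends came from leaving out an untreated library, and 1246 of the calls remained without replicate 1 and 1224 without replicate 2. With DESeq2 the single generations gave 809 in P0 (583 higher, 226 lower), 787 in F1 (558, 229) and 815 in F2 (570, 245). Leaving out 1 library gave 1045 to 1743 in P0 (674 to 1035 higher, 325 to 715 lower), 1010 to 1648 in F1 (657 to 963, 338 to 693) and 1023 to 1562 in F2 (653 to 912, 339 to 653). Between generations every setting gave 0. The genotype difference, called for 5157 transcripts in the main test, was called for 3828 with DESeq2. Scaling from transcripts under 0.2 counts per nucleotide gave 5244. Its balance was 3105 higher and 2139 lower, where the main test gave 2388 and 2769. Replicate numbers did not pair the libraries, and a replicate block gave 1990 calls. Library size scaling gave 1022 higher and 1141 lower. Of 184 named genes called, 0 reversed. Only uncalled genes changed sign. Library size scaling gave -0.021 for C18A3.1 and -0.0070 for hsp-60. With 1 library left out the values were -0.17 to 0.19 for C18A3.1, -0.017 to 0.053 for hsp-60 and -0.36 to 0.26 for sod-3. The causes were not tested. With 3541390 to 4036728 counts a library and 2 libraries a group, small changes of low transcripts were not detectable.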
